A study of Mus musculus with 6 samples.

Results

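Translation initiation and elongation factors are the proteins that load messenger RNA onto the ribosome, find the start codon and move the ribosome along the coding sequence. The 63 genes described here were every gene of the expression table whose symbol begins with Eif1 to Eif6, Eef1 or Eef2, out of 55536 genes in all. Symbols beginning with Eif2ak, which are kinases, those beginning with Eif2s3, and 10 symbols with -ps, which mark pseudogenes, were left out. The annotation lists 62 of the 63 as protein coding, and the exception, Eif2c5, is annotated as a long noncoding RNA and was listed at 0 in every library.

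RNA was measured in 6 liver samples of C57BL/6 mice aged 8 to 10 weeks, 3 libraries in each of 2 groups. All of the mice carried floxed Vmp1 alleles and received an intravenous AAV8 virus with the TBG promoter, which is active in hepatocytes, 2 weeks before. In the 3 libraries labelled H-VMP1 KO the virus was AAV8-TBG-cre, meant to remove Vmp1 from hepatocytes alone, so that other liver cells keep the gene. In the 3 libraries labelled WT it was AAV8-TBG-null, so the WT mice were also floxed and also received virus. VMP1, a protein in the endoplasmic reticulum membrane, takes part in autophagy and lipid export. Values are TPM (transcript abundance as a share of a fixed total), which are corrected for transcript length and sum to the same total in each library. No read totals are kept in TPM, so the depth behind each value is unknown.

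Initiation begins when eIF2 brings the initiator tRNA to the small ribosomal subunit, helped by eIF1, eIF1A, eIF3 and eIF5. The cap-binding complex eIF4F, made of eIF4E, eIF4G and the helicase eIF4A, recruits the mRNA, and the 4E-BP proteins block it by holding eIF4E. In elongation, eEF1A delivers each aminoacyl-tRNA and eEF2 moves the ribosome to the next codon. The liver makes most plasma proteins and its translation is controlled by insulin, amino acids and stress, mainly through eIF2 phosphorylation and the kinase mTORC1.

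Promoter sequences are shown for 8 members, chosen as the most abundant factor, eEF1A1, and members with large or opposite changes or with the motifs searched for. Each line gives 100 bases, 70 before and 30 after the annotated transcript start, read 5′ to 3′ on the gene's strand from RefSeq on GRCm38.p6. Capitals mark CCGGAAG, the type of site bound by ETS-family factors, or CACGTG, the E-box bound by MYC and USF factors. They also mark pyrimidine tracts from 20 bases before to 30 after the annotated start. The mRNAs whose translation mTORC1 controls begin with such a tract, and these marks do not show where the mRNA begins.
Eef1a1 (chr9:78481695-78481794, minus strand): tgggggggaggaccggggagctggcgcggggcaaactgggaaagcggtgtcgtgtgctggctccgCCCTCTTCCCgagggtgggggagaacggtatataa
Eef1b2 (chr1:63176761-63176860, plus strand): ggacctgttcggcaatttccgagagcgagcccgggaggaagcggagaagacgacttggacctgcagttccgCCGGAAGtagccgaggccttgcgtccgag
Eef2 (chr10:81176561-81176660, plus strand): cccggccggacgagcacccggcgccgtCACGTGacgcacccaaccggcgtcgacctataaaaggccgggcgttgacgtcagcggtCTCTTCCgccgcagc
Eif3f (chr7:108934345-108934444, plus strand): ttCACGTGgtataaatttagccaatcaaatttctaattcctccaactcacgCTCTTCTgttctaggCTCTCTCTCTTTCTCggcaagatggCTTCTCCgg
Eif4e2 (chr1:87213841-87213940, plus strand, the first of 3 annotated starts): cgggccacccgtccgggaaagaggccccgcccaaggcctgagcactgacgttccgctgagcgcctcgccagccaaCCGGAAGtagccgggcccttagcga
Eif2b2 (chr12:85219411-85219510, plus strand): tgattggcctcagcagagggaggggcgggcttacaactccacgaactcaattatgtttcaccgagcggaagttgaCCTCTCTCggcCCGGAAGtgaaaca
Eif4a1 (chr11:69672394-69672493, minus strand): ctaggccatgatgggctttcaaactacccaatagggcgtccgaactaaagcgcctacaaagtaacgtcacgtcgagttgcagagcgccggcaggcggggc
Eif4a2 (chr16:23107398-23107497, plus strand): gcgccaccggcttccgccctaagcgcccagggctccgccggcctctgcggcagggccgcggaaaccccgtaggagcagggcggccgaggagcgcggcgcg
The windows of Eif4a1 and Eif4a2 carry no capitals, and the CACGTG of Eif4a1 lies farther from its start.

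A promoter entry, 250 bases before to 50 after the start, was found for 47 of the 63 members and for 27025 genes in all. A gene was counted once, if the window of any of its annotated starts held the motif. CCGGAAG, searched on both strands, was present in 16 of the 47 members (34.0%), against 9.93% of all genes with an entry. Among tested genes it was present in 15 of 44 members (34.1%), against 20.3% of all. CACGTG, which reads the same on both strands, was present in 13 of the 47 (27.7%), against 8.09% of all genes with an entry. Among tested genes it was present in 12 of 44 members (27.3%), against 11.8% of all. A pyrimidine tract was counted as a C followed by at least 6 pyrimidines on the transcript strand within 20 bases before to 30 after the start. It was present in 17 members (36.2%), against 25.0%, and in 15 of the 44 tested members (34.1%), against 26.4% of tested genes. TGATGNAA, the form of site bound by ATF4 with C/EBP factors, searched on both strands, was present in 1 member (2.13%), Eef2k, against 4.51%. That was 2.27% of the 44 tested members, against 2.89% of tested genes. The tract can share bases with CCGGAAG, and TGATGNAA with CACGTG, and each was counted on its own. Every share describes letters in these windows, not of binding.

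Before the results, some features of the libraries bear on every value. Vmp1 itself had 157, 136 and 137 TPM in the libraries labelled H-VMP1 KO, against 70.7, 96.5 and 88.6 TPM in the WT libraries. The targeted gene was thus higher in the libraries labelled knockout (log2 fold change 0.75 ± 0.13 SE, adjusted p = 0.00038), and was not called after the scaling described next (-0.16, adjusted p = 0.25). These gene-level values also cover exons outside the floxed part, and the labels do not say which exons it holds. The major urinary protein (Mup) genes, 22 abundant liver genes, held 0.341% to 0.545% of TPM in the libraries labelled H-VMP1 KO, against 11.6% to 21.2% in WT. Since TPM is a share of a fixed total, every other gene can read higher where the Mup genes read lower. Counts and log2 fold changes are therefore given as deposited and again after median-of-ratios scaling, in which each library is divided by the typical ratio of its genes to their geometric mean over libraries. That scaling assumes that the typical gene does not change, and "after scaling" refers to it throughout. Over the 12796 genes tested, log2 fold changes had a median of 0.77 as deposited and of 0.01 after scaling.

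Most translation factors were higher in the libraries labelled H-VMP1 KO as deposited, and so were most genes. Of the 63 members, 58 had at least 1 TPM in at least 3 libraries and were tested. As deposited, 53 of the 58 were called higher and 2 lower at an adjusted p under 0.05 (limma), where 74.5% of all tested genes were called higher and 10.7% lower. With median-of-ratios scaling 28 members were called higher and 10 lower, where 36.2% of all tested genes were called higher and 35.6% lower. With quantile normalization, which gives every library the same distribution of values, 39 were called higher and 6 lower, where 35.3% and 35.4% of all tested genes were. Log2 fold changes of the tested members had a median of 1.10 as deposited, against 0.77 for all tested genes, and 0.22 after scaling, against 0.01. All 28 members called higher after that scaling were also called higher as deposited. Another 6 that were called higher as deposited were called lower after it, namely Eif1, Eif2a, Eif2b5, Eif3j1, Eif4g1 and Eif4h. Every library labelled H-VMP1 KO was above every WT library for 53 members as deposited, where this held for 75.5% of all tested genes, and every one was below WT for 2, where this held for 11.3%. After scaling, 32 members lay wholly above and 12 wholly below WT, where 38.7% and 37.9% of all tested genes did.

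The summed TPM of all 63 members was 1.42%, 1.24% and 1.503% of the total in the libraries labelled H-VMP1 KO, against 0.583%, 0.744% and 0.594% in the WT libraries. With no overlap between the groups, the exact two-sided permutation test gave p = 0.1, the smallest that 3 libraries against 3 allow. After scaling the sums were 9966, 9438 and 10750.0, against 8099, 9562 and 8647 in WT, and the groups overlapped (exact p = 0.2). WT replicate 2 had the highest WT value for 48 of the 58 tested members, where this was so for 60.2% of all tested genes. H-VMP1 KO replicate 2 had the lowest value of its group for 51 of the 58, where this was so for 53.0% of all tested genes. Both counts are as deposited. After scaling WT replicate 2 was highest in WT for 34 of the 58, against 34.6% of all tested genes. H-VMP1 KO replicate 2 was then lowest in its group for 25, against 33.6% of all tested genes. The labels number the samples and not the mice, so every p-value here reflects only how much these samples vary, which may be technical.

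Markers of other liver cell types differed with the groups. As a background, 74.5% of all tested genes were called higher and 10.7% lower as deposited, and 36.2% and 35.6% after scaling. The summed marker levels below are TPM as deposited. All 10 macrophage markers were called higher both as deposited and after scaling, and their summed level was 1416 to 1887 TPM in the libraries labelled H-VMP1 KO, against 131 to 223 TPM in WT. All 8 stellate cell and fibroblast markers were called higher both as deposited and after scaling (114 to 163 TPM, against 12.6 to 19.99 TPM in WT). All 8 endothelial markers were called higher as deposited and 5 after scaling (124 to 166 TPM, against 46.7 to 52.3 TPM in WT). Kdr, Tek and Clec4g were not called after scaling (-0.02, 0.20 and 0.14). Of the 10 hepatocyte markers, 7 were called lower as deposited and all 10 after scaling (23250 to 26760 TPM, against 51710 to 69790 TPM in WT). Of the remaining lists, 4 of 6 cholangiocyte, 1 of 7 T and NK cell and 2 of 4 B cell markers passed the filter on low values. So did 3 of 5 neutrophil and 4 of 4 proliferation markers. Each marker that passed was called higher both as deposited and after scaling. However, Krt19, Epcam, Sox9, Trac, Cd79a, Cd79b, Retnlg, S100a8, Top2a, Mki67 and Ccnb1 were under 1 TPM in every WT library. So were Cd14 of the macrophage list and Acta2 of the stellate cell and fibroblast list. Such genes could pass the filter only through the libraries labelled H-VMP1 KO, so their calls were close to fixed in advance. None of the markers in these lists was at 0 in all libraries. The part of these cells in the levels of the translation factors was not tested, and in whole liver RNA fewer cells of a type and less RNA per cell cannot be told apart.

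**Figure D1:**
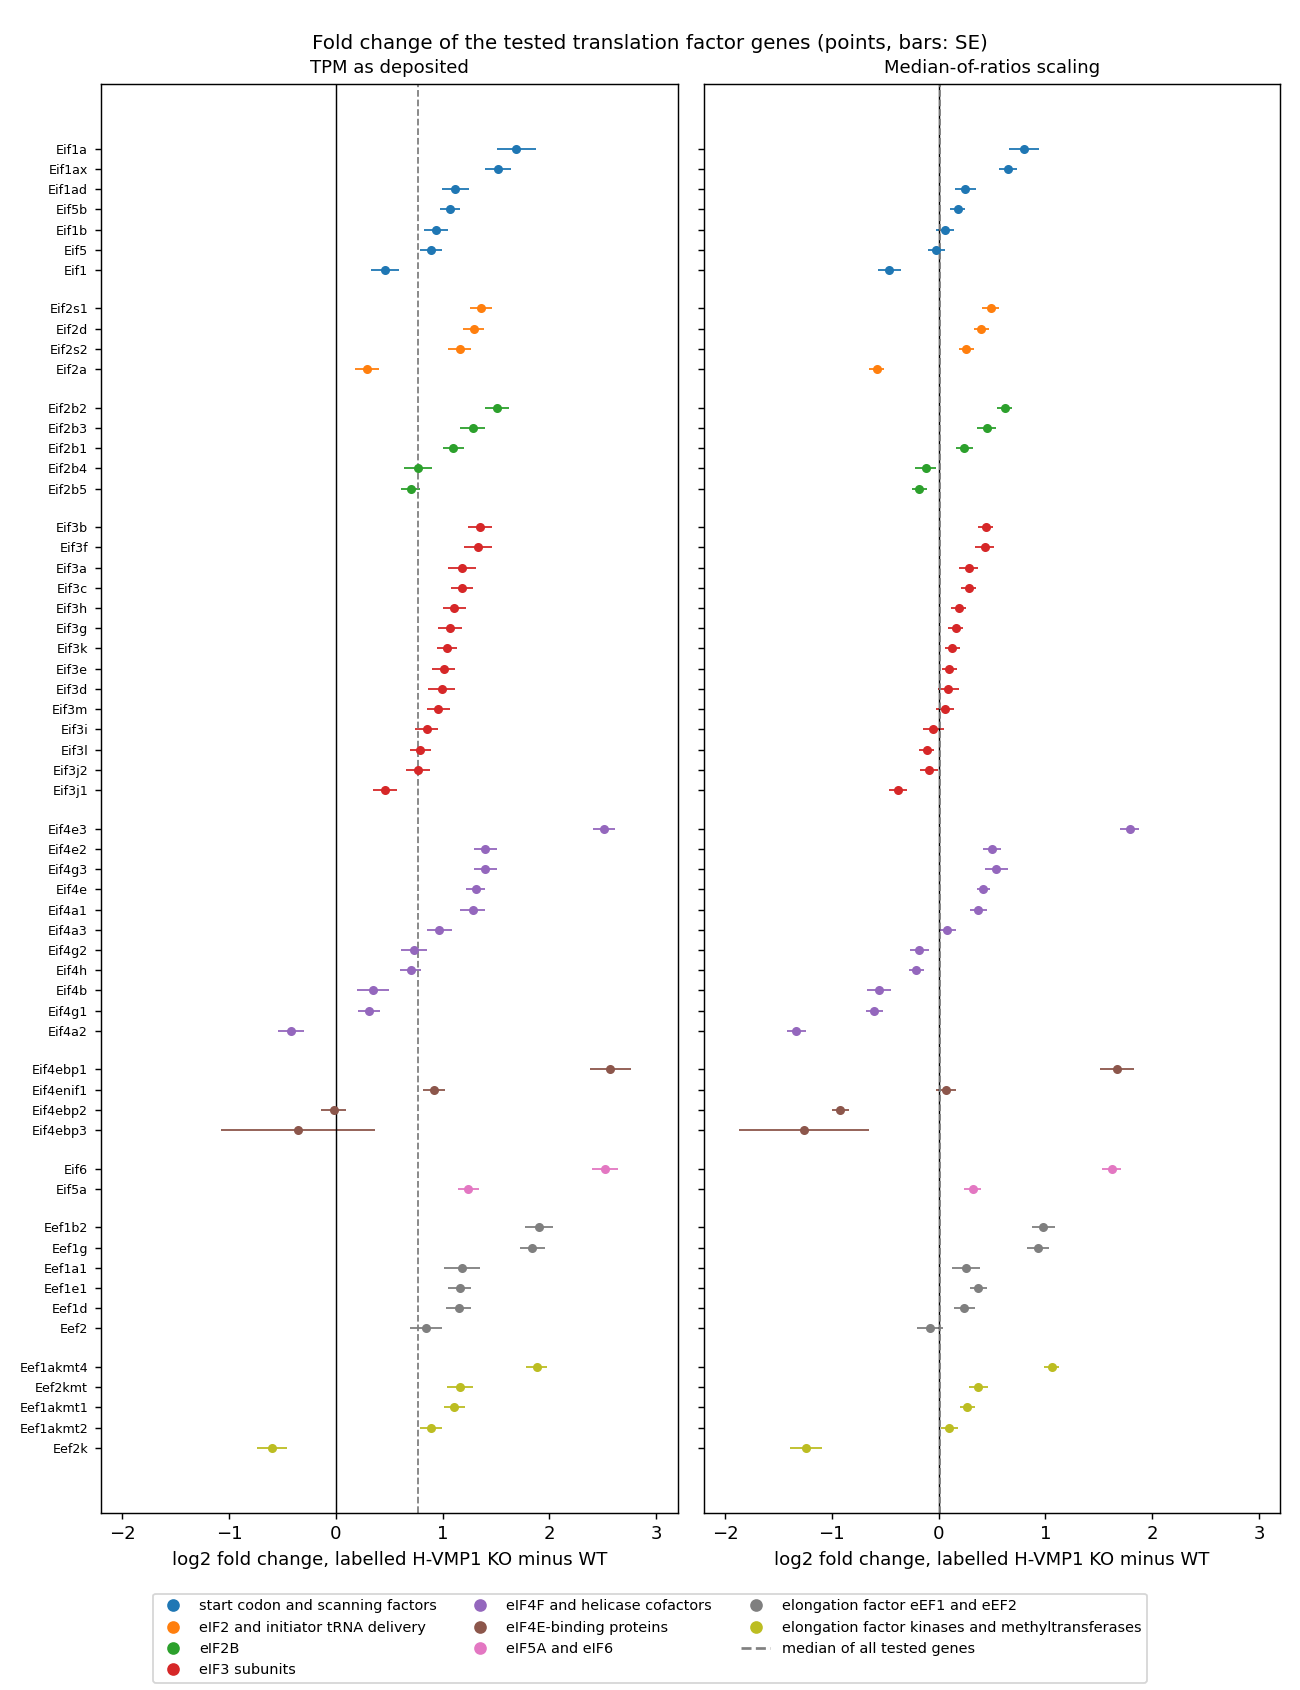
Log2 fold change (labelled H-VMP1 KO minus WT) of the 58 tested genes by role, as points with standard errors, from TPM as deposited (left) and after median-of-ratios scaling (right). The dashed line is the median of all tested genes, 0.77 on the left and 0.01 on the right, and Eif4ebp1, Eif6 and Eif4e3 lie farthest to the right of it on both sides.

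The factors that prepare the small ribosomal subunit and read the start codon were all called higher as deposited (7 of 7, median log2 fold change 1.07), and after scaling 3 were called higher and 1 lower (median 0.18). Over all tested genes, 74.5% were called higher and 10.7% lower as deposited, and 36.2% and 35.6% after scaling. The counts of each role group below are to be read against these shares. Eif1a, which encodes a form of eIF1A, the factor that sits in the ribosomal A site during scanning, had 75.0, 53.9 and 68.8 TPM in the libraries labelled H-VMP1 KO, against 18.4, 25.4 and 16.1 TPM in WT. Its near-identical X-linked copy Eif1ax had 35.6, 33.6 and 38.9 TPM, against 11.4, 13.9 and 10.6 TPM in WT. The groups did not overlap for either gene, and the log2 fold changes were 1.69 ± 0.18 (adjusted p = 3.2e-05) for Eif1a and 1.52 ± 0.12 (adjusted p = 1.9e-06) for Eif1ax. With median-of-ratios scaling both stayed called higher, at 0.80 and 0.65. Eif1ad, which encodes a protein with an eIF1A-like domain, had 32.9, 31.6 and 32.2 TPM, against 12.5, 17.7 and 13 TPM in WT (1.12 ± 0.13, adjusted p = 2.6e-05). It was not called after scaling (0.25, adjusted p = 0.057).

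Eif1, whose product guards against starting at the wrong codon, moved less than the median gene. It had 725, 641 and 677 TPM in the libraries labelled H-VMP1 KO, against 426, 562 and 505 TPM in WT, groups that did not overlap (0.46 ± 0.13, adjusted p = 0.0077). It was called lower after scaling (-0.46, adjusted p = 0.0059). Eif5, the GTPase-activating factor that makes eIF2 release the initiator tRNA, had 142, 115 and 135 TPM, against 71.2, 69.2 and 68.8 TPM in WT (0.89 ± 0.10, adjusted p = 2.7e-05), and lay at -0.02 after scaling. Eif5b, which joins the large subunit, was called higher both as deposited and after scaling (1.07 and 0.18), while Eif1b, a copy of Eif1, was called higher as deposited alone (0.94 and 0.06).

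All 4 genes that deliver the initiator tRNA were called higher as deposited (median 1.22), and after scaling 3 were called higher and 1, Eif2a, lower (median 0.33). Eif2s1 encodes the eIF2 alpha subunit, the target of the stress kinases, and had 38.9, 33.9 and 34.3 TPM in the libraries labelled H-VMP1 KO, against 13.8, 13.3 and 12.5 TPM in WT. The groups stood far apart, with a log2 fold change of 1.36 ± 0.10 (adjusted p = 1.2e-06) and 0.49 after scaling. Eif2s2, the beta subunit, had 73.6, 62.5 and 71.8 TPM, against 29.6, 33.4 and 28.4 TPM in WT (1.16 ± 0.11, adjusted p = 5.4e-06; 0.26 after scaling). Eif2d, which can place tRNA on the ribosome without eIF2, had 44.8, 42.4 and 46.6 TPM, against 16.3, 19.8 and 17 TPM in WT (1.29 ± 0.10, adjusted p = 2.3e-06; 0.40 after scaling). Neither group overlapped the other for these genes. Eif2a, another carrier of initiator tRNA that is not the eIF2 alpha subunit, was at 0.29 (adjusted p = 0.028), and at -0.58 after scaling, where it was called lower. Its deposited call was lost without H-VMP1 KO replicate 1, H-VMP1 KO replicate 3, WT replicate 1 or WT replicate 3.

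eIF2B recharges eIF2 with GTP and is the complex that phosphorylated eIF2 blocks. All 5 subunit genes were called higher as deposited (median 1.10), and after scaling 3 were called higher and 1 lower (median 0.24). Eif2b2, the beta subunit, had 59.5, 49.3 and 59.3 TPM in the libraries labelled H-VMP1 KO, against 19.3, 20.9 and 17 TPM in WT (1.51 ± 0.11, adjusted p = 1.7e-06; 0.62 after scaling). Eif2b3, the gamma subunit, had 15.3, 15.2 and 16.3 TPM, against 5.95, 6.71 and 4.98 TPM in WT (1.28 ± 0.12, adjusted p = 4.9e-06; 0.45). Eif2b1, the alpha subunit, had 25.9, 23.7 and 24 TPM, against 11.8, 10.9 and 10.0 TPM in WT (1.10 ± 0.10, adjusted p = 4.9e-06; 0.24). None of the 3 overlapped between groups. Eif2b5, the catalytic epsilon subunit, had 36.6, 34.7 and 34.1 TPM, against 20.6, 22.2 and 20.9 TPM in WT. Its change was the smallest of the 5 as deposited (0.70 ± 0.09, adjusted p = 5e-05), and it was called lower after scaling (-0.18, adjusted p = 0.04). Eif2b4, the delta subunit, lay at 0.77 as deposited and at -0.12, uncalled, after scaling.

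**Figure D2:**
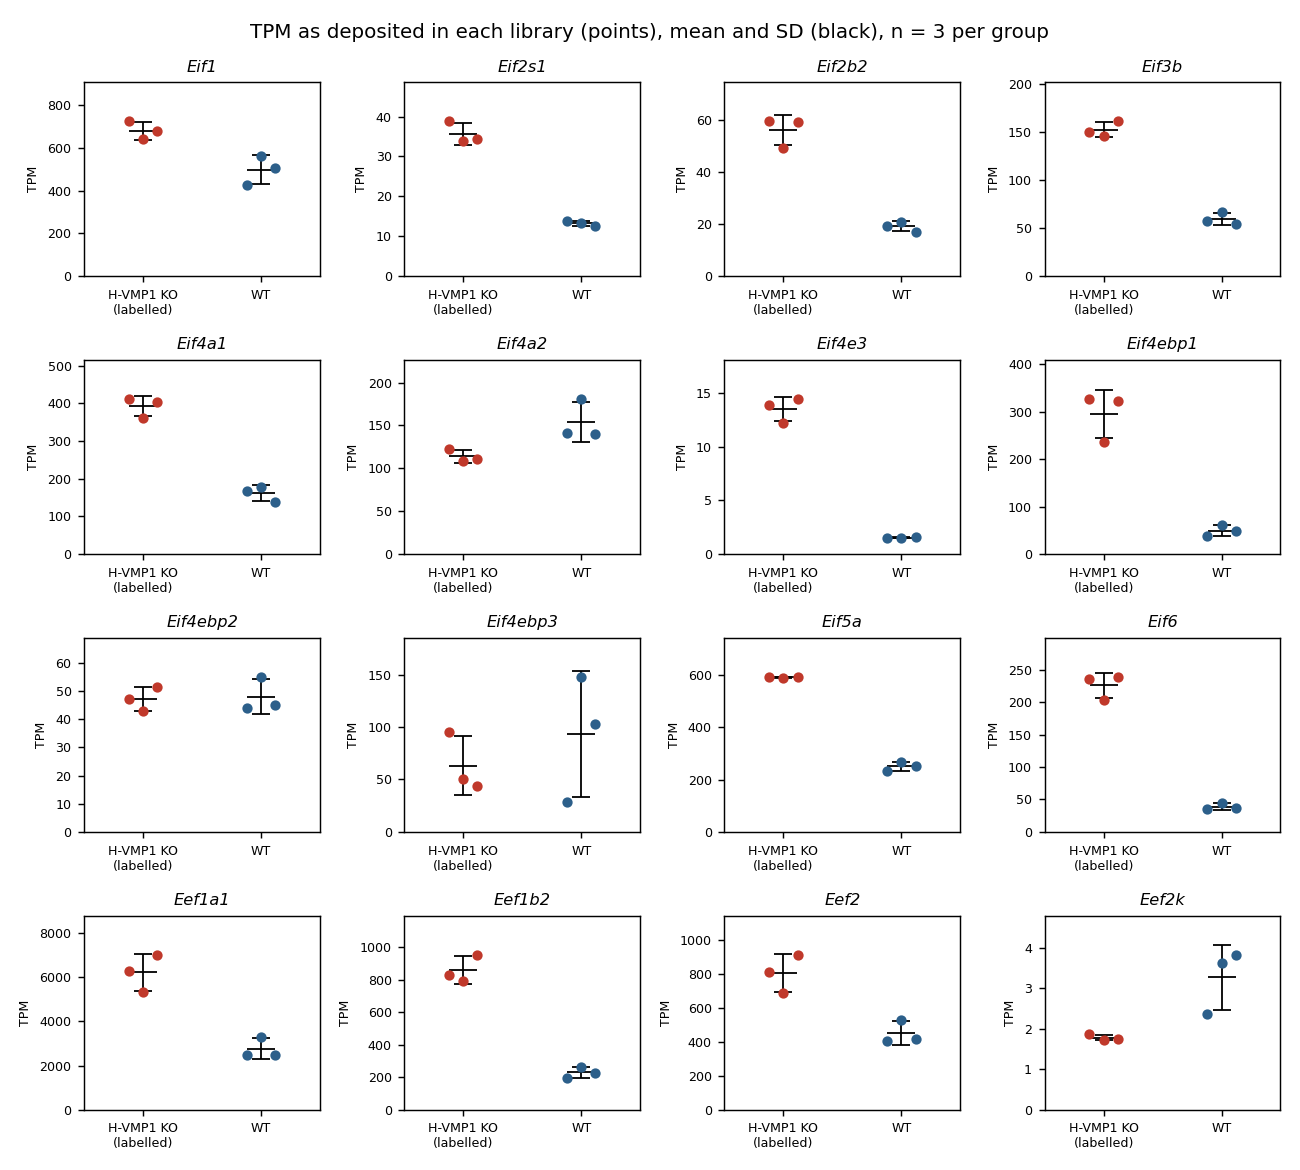
TPM as deposited of 16 translation factor genes, labelled H-VMP1 KO left and WT right, with 3 libraries per group as points and the mean and SD in black; each vertical axis starts at 0. Eif6 lay between 204 and 239 TPM in the libraries labelled H-VMP1 KO and between 34.6 and 45.05 TPM in WT, while the groups overlap for Eif4ebp2 and Eif4ebp3.

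eIF3 is the large scaffold that holds the small subunit, the other initiation factors and the mRNA together. As deposited all 14 subunit genes were called higher, with a median of 1.02 and a range of 0.46 (Eif3j1) to 1.35 (Eif3b). With median-of-ratios scaling 5 were called higher (Eif3a, Eif3b, Eif3c, Eif3f and Eif3h), 1 lower (Eif3j1) and 8 were not called (median 0.11). Over all tested genes, 36.2% were called higher and 35.6% lower with that scaling. The standard deviation of the log2 fold changes was 0.24 over the 14 eIF3 genes, against 0.61 over all 58 tested members. Eif3b had 149.9, 146 and 161 TPM in the libraries labelled H-VMP1 KO, against 57.9, 66.3 and 53.9 TPM in WT (1.35 ± 0.11, adjusted p = 2e-06; 0.44 after scaling). Eif3f had 84.0, 72.2 and 89.2 TPM, against 29.9, 38.0 and 28.5 TPM in WT (1.33 ± 0.13, adjusted p = 8.8e-06; 0.43). The core subunit Eif3a had 81.4, 69.0 and 75.6 TPM, against 35.4, 36.1 and 27.2 TPM in WT (1.18 ± 0.13, adjusted p = 1.5e-05; 0.28). No value of one group reached the other for these genes. Eif3c, also of the core, had 93.0, 89.9 and 102 TPM, against 39.9, 44.2 and 39.8 TPM in WT (1.18 ± 0.10, adjusted p = 2.6e-06; 0.28).

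Within the eIF3 sum, which does not depend on the scaling between libraries, some subunit shares differed between the groups. Eif3b made up 11.2 ± 0.317% of the eIF3 TPM in the libraries labelled H-VMP1 KO and 9.17 ± 0.102% in WT (SD, n = 3 each). Eif3f made up 5.98 ± 0.322% and, in WT, 4.95 ± 0.281%. Eif3l made up 5.33 ± 0.110% and, in WT, 6.46 ± 0.201%. Eif3j1, a loosely bound subunit, made up 1.02 ± 0.0857% and, in WT, 1.52 ± 0.0210%. These 4 shares did not overlap between groups and carry no test, since they were picked with their values in view. The shares of Eif3c, Eif3e, Eif3j2 and Eif3m did not overlap either. Of these, Eif3c was higher in the libraries labelled H-VMP1 KO (6.96 ± 0.231%, against 6.39 ± 0.280% in WT), and Eif3e, Eif3j2 and Eif3m were lower. The shares of Eif3a, Eif3d, Eif3i and Eif3k overlapped. Eif3g, at 10.8 ± 0.260% and, in WT, 10.8 ± 0.0599%, and Eif3h, at 14.3 ± 0.680% and, in WT, 13.9 ± 0.222%, overlapped.

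**Figure D3:**
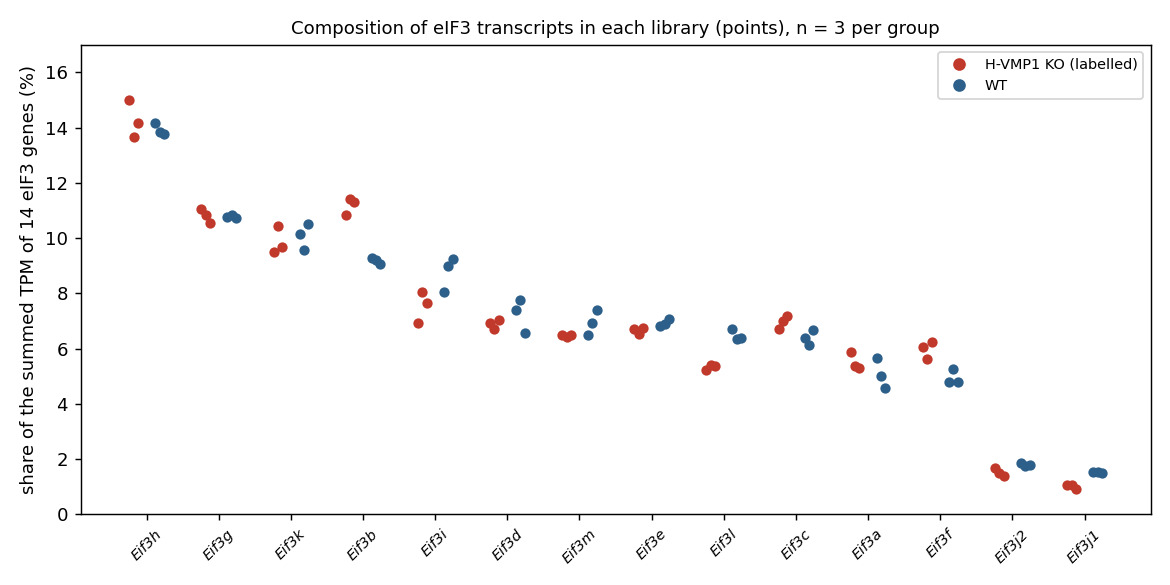
Share of the summed eIF3 TPM held by each of the 14 subunit genes, in percent, with the 3 libraries labelled H-VMP1 KO (left, red) and the 3 WT libraries (right, blue) as points. Eif3b lies higher and Eif3l and Eif3j1 lower in the libraries labelled H-VMP1 KO, and Eif3h, the most abundant, overlaps.

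The cap-binding complex and its helicase cofactors held contrasts between close relatives. As deposited 9 of the 11 tested genes were called higher and 1, Eif4a2, lower (median 0.97), and after scaling 5 were called higher and 4 lower (median 0.08). Eif4e3, a member of the cap-binding family (chromosome 6, 99625135 to 99666771, minus strand, GRCm38), had 13.8, 12.2 and 14.4 TPM in the libraries labelled H-VMP1 KO, against 1.49, 1.51 and 1.61 TPM in WT. The groups stood far apart and its log2 fold change of 2.51 ± 0.10 (adjusted p = 5.3e-08; 1.79 after scaling, adjusted p = 2.7e-06) ranked above 95.5% of all tested genes. On the log2(TPM + 1) scale this change is understated, because its WT level is low.

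Eif4e, the main cap-binding protein, had 72.2, 63.7 and 69.5 TPM, against 27.0, 28.1 and 25.8 TPM in WT (1.31 ± 0.09, adjusted p = 1.1e-06; 0.42 after scaling). Eif4e2, a cap-binding protein that does not recruit eIF4G and represses the mRNAs it holds, had 104, 98.8 and 109.8 TPM, against 34.9, 44.9 and 37.2 TPM in WT (1.40 ± 0.11, adjusted p = 2.4e-06; 0.50). Both were higher in every library labelled H-VMP1 KO than in any WT library. Eif4e1b, an oocyte form, was listed at 0 in every library.

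The eIF4G scaffolds differed in size of change. Eif4g3 had 29.8, 25.3 and 29.4 TPM in the libraries labelled H-VMP1 KO, against 11.2, 9.08 and 9.79 TPM in WT (1.40 ± 0.11, adjusted p = 2.5e-06; 0.54 after scaling). Eif4g1, the main scaffold, had 117, 106 and 124 TPM, against 99.3, 91.7 and 88.5 TPM in WT. It was called higher as deposited (0.31 ± 0.10, adjusted p = 0.015) and lower after scaling (-0.60, adjusted p = 0.00044). Without H-VMP1 KO replicate 1, H-VMP1 KO replicate 3 or WT replicate 3, the deposited call of Eif4g1 was lost. Eif4g2, which lacks the eIF4E-binding site and serves cap-independent initiation, lay at 0.73 as deposited and at -0.18 after scaling.

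The 2 cytoplasmic eIF4A helicases went opposite ways both as deposited and after scaling. Eif4a1 had 412, 362 and 404 TPM in the libraries labelled H-VMP1 KO, against 167, 179 and 139 TPM in WT (1.28 ± 0.12, adjusted p = 7e-06; 0.37 after scaling, adjusted p = 0.0056). Eif4a2 (chromosome 16, 23107444 to 23114136, plus strand, GRCm38) had 123, 109 and 110.5 TPM, against 141, 181 and 140.1 TPM in WT (-0.42 ± 0.12, adjusted p = 0.009; -1.33 after scaling, adjusted p = 1e-05). Neither gene overlapped between groups. Eif4a3, the helicase of the exon junction complex, lay at 0.97 as deposited, where it was called higher, and at 0.08 after scaling. Of the cofactors that stimulate eIF4A, Eif4h was called higher as deposited (0.70) and lower after scaling (-0.21), and Eif4b was not called as deposited (0.35, adjusted p = 0.051) and called lower after scaling (-0.56). Eif4b was called higher as deposited once H-VMP1 KO replicate 2 or WT replicate 2 was left out (0.46 and 0.50).

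Shares within a family of paralogs are independent of the scaling between libraries. Eif4a2 made up 23.0%, 23.1% and 21.4% of the Eif4a1 and Eif4a2 sum in the libraries labelled H-VMP1 KO, against 45.8%, 50.3% and 50.2% in WT. Eif4e3 made up 7.25 ± 0.225% of the Eif4e, Eif4e2 and Eif4e3 sum in the libraries labelled H-VMP1 KO, against 2.29 ± 0.237% in WT (SD, n = 3 each). Eif4g3 made up 7.65 ± 0.153% of the eIF4G sum, against 4.23 ± 0.404% in WT, and Eif4g2 60.8 ± 1.97%, against 56.5 ± 1.42% in WT. Smaller shifts were seen for Eif3j2 in its pair with Eif3j1 (59.6 ± 1.44%, against 54.2 ± 0.478% in WT) and Eif1b in its pair with Eif1 (4.64 ± 0.281%, against 3.31 ± 0.535% in WT). None of these shares overlapped between groups, and each exact two-sided permutation test gave p = 0.1, the smallest possible (0.12 adjusted over the 12 shares computed). The share of Eif1a in its pair with Eif1ax was 64.4 ± 3.14%, against 62.2 ± 2.25% in WT (exact p = 0.5), and that of Eif4e2 in its family 56.0 ± 1.10%, against 57.6 ± 2.61% in WT (exact p = 0.4). These last groups overlapped. Reads shared by near-identical copies are divided by the quantification, so the single values of such pairs, and of genes with processed pseudogenes such as Eef1a1, are uncertain.

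**Figure D4:**
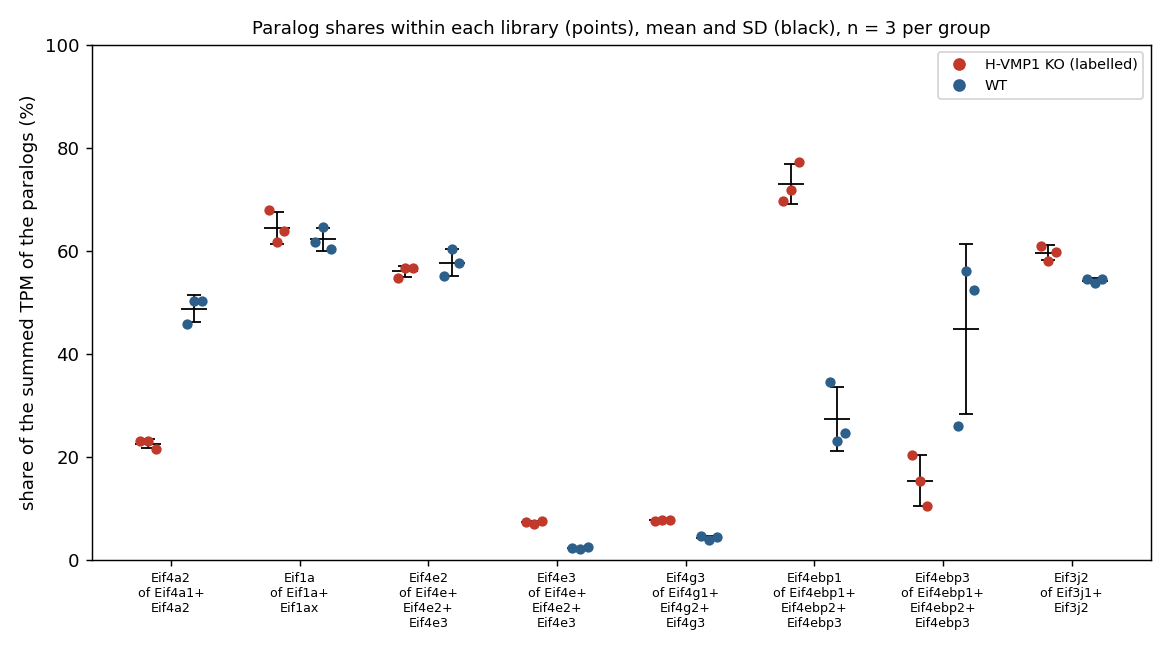
Share of each paralog in the summed TPM of its family, in percent, with 3 libraries labelled H-VMP1 KO (left, red) and 3 WT libraries (right, blue) as points and the mean and SD in black. Eif4a2 lies between 21.4% and 23.1% in the libraries labelled H-VMP1 KO and between 45.8% and 50.3% in WT, and Eif4ebp1 moves the other way within the 4E-BP family.

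The eIF4E-binding proteins did not move as a family. As deposited 2 of the 4 genes were called higher and none lower (median 0.45), and after scaling 1 was called higher and 1 lower (median -0.42). Eif4ebp1, the 4E-BP studied most as an mTORC1 target (chromosome 8, 27260329 to 27276674, plus strand, GRCm38), had 327, 237 and 322 TPM in the libraries labelled H-VMP1 KO, against 38.3, 60.9 and 48.0 TPM in WT. The groups did not overlap, and its log2 fold change of 2.57 ± 0.19 (adjusted p = 3.5e-06; 1.67 after scaling, adjusted p = 6.8e-05) was the largest of the 58 as deposited. It ranked above 95.8% of all tested genes. Eif4ebp2 had 47.1, 42.9 and 51.3 TPM, against 43.9, 55.1 and 45.1 TPM in WT, groups that overlapped (-0.02 ± 0.12, adjusted p = 0.85). With median-of-ratios scaling Eif4ebp2 was called lower (-0.92, adjusted p = 4.3e-05).

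Eif4ebp3 had the largest standard error of the 58 tested members, with 95.4, 50.05 and 43.7 TPM in the libraries labelled H-VMP1 KO, against 28.8, 148 and 103 TPM in WT. The groups overlapped and no call was made either way (-0.35 ± 0.72, adjusted p = 0.67). Leaving out 1 library at a time moved its log2 fold change between -1.04 and 0.12. It shares 501 exonic bases with AC115631.1 on the same strand, so its single values are uncertain. Eif4enif1, which carries eIF4E into the nucleus and represses mRNAs, had 18, 16.7 and 19.0 TPM, against 9.70, 8.53 and 8.63 TPM in WT (0.92 ± 0.10, adjusted p = 1.7e-05; 0.07 after scaling). In the 4E-BP family the share of Eif4ebp1 was 69.7%, 71.8% and 77.2% in the libraries labelled H-VMP1 KO, against 34.5%, 23.1% and 24.5% in WT (exact p = 0.1). The share of Eif4ebp3 was 20.3%, 15.2% and 10.5%, against 25.9%, 56.0% and 52.4% in WT (exact p = 0.1). Neither share overlapped between groups. The summed 4E-BP TPM over that of Eif4e was 6.51, 5.18 and 6.00 in the libraries labelled H-VMP1 KO, against 4.12, 9.40 and 7.58 in WT, groups that overlapped (exact two-sided permutation p = 0.5). Without WT replicate 2 the difference in means turned to 0.0486.

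Eif6 encodes a factor that keeps the large ribosomal subunit from joining too early and acts in its maturation. The gene (chromosome 2, 155819832 to 155826925, minus strand, GRCm38) had 235, 204 and 239 TPM in the libraries labelled H-VMP1 KO, against 34.6, 45.05 and 36.4 TPM in WT. The groups stood far apart, with a log2 fold change of 2.52 ± 0.12 (adjusted p = 1.3e-07; 1.62 after scaling, adjusted p = 4.5e-06) that ranked above 95.5% of all tested genes. Eif5a, the hypusine-bearing factor that helps ribosomes through difficult peptide sequences, had 591, 590.1 and 593 TPM, against 233, 268 and 250.7 TPM in WT (1.24 ± 0.10, adjusted p = 2.9e-06; 0.32 after scaling, adjusted p = 0.01). Its 3 libraries labelled H-VMP1 KO were nearly equal and all above WT. Eif5a2, a second gene for eIF5A, stayed under the filter at 0.13 to 0.20 TPM, against 0.01 to 0.03 TPM in WT.

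The elongation factors were the most abundant members. All 6 tested eEF1 and eEF2 genes were called higher as deposited (median 1.17), and after scaling 3 were called higher and none lower (median 0.31). Their summed level was 8566, 7412 and 9559 TPM in the libraries labelled H-VMP1 KO, against 3293, 4354 and 3327 TPM in WT, groups that did not overlap (exact p = 0.1), and after scaling 6035, 5663 and 6834, against 4575, 5594 and 4845 in WT (exact p = 0.1). Eef1a1, the carrier of aminoacyl-tRNA, made up most of it, with 6296, 5336 and 7010.1 TPM, against 2498, 3305 and 2466 TPM in WT. It was called as deposited (1.18 ± 0.17, adjusted p = 9.9e-05) and not after scaling (0.26, adjusted p = 0.11). With quantile normalization its log2 fold change was larger, at 1.82 (adjusted p = 2.5e-05), so the size of its change depends on the scaling.

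The eEF1B subunits recharge eEF1A with GTP, and Eef1b2, a catalytic subunit, and Eef1g, a structural one, had the largest changes of this group as deposited and after scaling. With quantile normalization they were at 1.46 and 1.40, below Eef1a1. Eef1b2 had 829, 791 and 953 TPM in the libraries labelled H-VMP1 KO, against 198, 263 and 229 TPM in WT (1.90 ± 0.13, adjusted p = 1.1e-06; 0.98 after scaling). Eef1g had 374, 342 and 402 TPM, against 90.9, 117 and 103 TPM in WT (1.84 ± 0.12, adjusted p = 7.4e-07; 0.93). The groups did not overlap for either gene. Eef1d, the other exchange subunit, lay at 1.15 as deposited and at 0.24, uncalled, after scaling. It shares 277 exonic bases with Naprt on the same strand. Eef1e1, which belongs to the multisynthetase complex, was called higher both as deposited and after scaling (1.16 and 0.37). Eef2, the translocase, had 812, 692 and 916 TPM, against 405, 532 and 416 TPM in WT, with no overlap (0.84 ± 0.15, adjusted p = 0.00049), and lay at -0.08 after scaling (adjusted p = 0.57).

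Eef1a2, the form of eEF1A made in muscle and neurons, had 0.21, 0.13 and 0.09 TPM in the libraries labelled H-VMP1 KO and was listed at 0 in every WT library. It passed no filter and was not tested. The skeletal muscle markers were also near 0, with a summed level of 0.18 to 0.33 TPM in the libraries labelled H-VMP1 KO and 0 in WT, and Myh4 was at 0 in all libraries.

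Eef2k (chromosome 7, 120842831 to 120907450, plus strand, GRCm38) encodes the kinase that inactivates eEF2, and was 1 of only 2 members called lower as deposited, the other being Eif4a2. It had 1.86, 1.73 and 1.76 TPM in the libraries labelled H-VMP1 KO, against 2.36, 3.62 and 3.83 TPM in WT. The groups did not overlap, and its level was low in all libraries (-0.60 ± 0.14, adjusted p = 0.0031; -1.24 after scaling, adjusted p = 0.00023). The methyltransferases of the elongation factors went the other way, with all 4 tested genes called higher as deposited and 3 after scaling. Eef1akmt4, which methylates eEF1A, had 20.9, 20.6 and 19.7 TPM, against 4.59, 5.36 and 4.54 TPM in WT (1.88 ± 0.10, adjusted p = 2.2e-07; 1.06 after scaling). Eef2kmt, which methylates eEF2, had 12.6, 9.80 and 10.4 TPM, against 3.96, 4.76 and 4.18 TPM in WT (1.16 ± 0.12, adjusted p = 1.1e-05; 0.37). Eef1akmt1 had 17, 15.5 and 15.8 TPM, against 6.41, 7.54 and 6.85 TPM in WT (1.11 ± 0.10, adjusted p = 5.1e-06; 0.27). All 3 were above every WT library in each library labelled H-VMP1 KO. Eef1akmt2 was called higher as deposited alone (0.89 and 0.10), and Eef1akmt3 stayed under the filter at 0.34 to 0.38 TPM, against 0.01 to 0.05 TPM in WT. Exons of Eef1akmt4 overlap those of Gm49333 on the same strand by 495 bases and those of Eef2kmt overlap Alg1 on the opposite strand by 472 bases. Other long overlaps on the opposite strand were those of Eif5b with Rev1 (1643 bases), Eif3j1 with Spg11 (1107 bases) and Eif1ad with Banf1 (428 bases). The longest was that of Eif3d with Gm17638 (2151 bases), a gene listed at 0 in every library. Reads of such pairs may be mixed, since the strand setting of the quantification is not given in the sources used here.

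Other genes of translation, outside the factor names, were read against the same background. As deposited 74.5% of all tested genes were called higher and 10.7% lower, and after scaling 36.2% and 35.6%. All 9 genes that make hypusine on eIF5A or diphthamide on eEF2 were called higher as deposited (median 1.18), and after scaling 5 were called higher and 1 lower. Dph3 had 64.0, 61.7 and 61.9 TPM in the libraries labelled H-VMP1 KO, against 15.7, 16.5 and 15.8 TPM in WT (1.91), with a log2 fold change of 1.02 after scaling. Dph5 was at 1.33 as deposited and 0.49 after scaling, and Dhps, the deoxyhypusine synthase, at 1.21 and 0.35, and all 3 were called higher both ways. Of the 11 poly(A)-binding and accessory initiation genes, 9 were called higher and 1 lower as deposited, and 3 higher and 5 lower after scaling. Pabpc1, the main cytoplasmic poly(A)-binding protein, had 690.3, 406 and 631 TPM, against 131, 138 and 111 TPM in WT (2.15 ± 0.20, adjusted p = 1.2e-05; 1.23 after scaling). Dhx29, a helicase for structured leaders, was at 1.40 as deposited and 0.69 after scaling, and Mknk1, a kinase of eIF4E, at 1.37 and 0.53, each called higher both ways. Pdcd4, an inhibitor of eIF4A that was chosen after its values were seen, was lower, with 22.1, 24.8 and 19.9 TPM in the libraries labelled H-VMP1 KO, against 42.3, 39.8 and 43.2 TPM in WT (-0.88 ± 0.10, adjusted p = 3.1e-05; -1.77 after scaling).

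Of the 7 termination and recycling genes, 5 were called higher as deposited and none lower, and after scaling 3 were called higher and 3 lower. Denr, a recycling factor, was at 1.42 as deposited and 0.51 after scaling, and Etf1, the release factor that reads stop codons, at 1.35 and 0.46, both called higher each way. Abce1, which splits ribosomes, was called higher as deposited (0.74) and not called after scaling (-0.15, adjusted p = 0.11). Of the 10 mTORC1 genes, 7 were called higher and 1 lower as deposited, close to the 74.5% and 10.7% of all tested genes. After scaling none were called higher and 6 lower, where 36.2% and 35.6% of all tested genes were. Deptor, an inhibitor of mTOR, had 6.18, 7.70 and 6.65 TPM in the libraries labelled H-VMP1 KO, against 20.8, 22.4 and 24.1 TPM in WT (-1.58 ± 0.11, adjusted p = 1e-06; -2.41 after scaling). Rheb, the mTORC1 activator, was called higher as deposited (1.06) and not after scaling (0.17, adjusted p = 0.084), and Akt1s1 likewise (0.87, and -0.03 after scaling, adjusted p = 0.74). Mitochondria translate with their own factors, and of these 9 genes 4 were called higher and 1, Mtif2, lower as deposited, and none higher and 7 lower after scaling. Without H-VMP1 KO replicate 3 no gene of this list was called lower as deposited. Tsfm, Mrrf and Tufm were called higher as deposited (1.0, 0.80 and 0.57), against 0.77 for the median of all tested genes. After scaling Tsfm (0.13) and Mrrf (-0.06) were not called and Tufm was called lower (-0.33, adjusted p = 0.011).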

How the data were processed

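Total RNA from snap-frozen mouse livers was sequenced, 1 library per sample. The authors deposited 1 table of TPM values per gene. Per the submitters' processing notes the tools were RSEM, edgeR and STAR 2.6.1c and the build was mm10, without their roles or order; the sources used here give neither strand setting nor read totals. Members and gene lists were chosen with earlier results of these data known.

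The 12796 genes reaching 1 TPM in 3 or more libraries were fitted as log2(TPM + 1) with limma 3.58.1 in R 4.3.3 (trended, robust empirical Bayes; Benjamini-Hochberg over all tested genes; called at adjusted p under 0.05). Fold changes on this scale understate changes of low genes. The fit was tested on simulated data with as many genes raised as lowered and no shift between libraries. That test does not bear on the scaling. For sums, shares and ratios, the test was a two-sided exact permutation test over libraries. Values in every library are given for anchors of each role and for up to 3 members per role group with the largest change and a mean of at least 5 TPM in 1 group; up to 3 called genes per other list are named likewise. Positions are from GENCODE M21 on GRCm38, which matched all 63 members. Column names matched the titles, and 0 columns were left unmapped. Alternatives changed the pseudocount, filter, scaling, variance model, threshold and replicate block, and left out each library; counting calls shared by both scalings was added after seeing the data. Figures used matplotlib 3.10.9.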

Additional observations from a re-analysis of the deposited data

How the results depend on the processing

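Scaling between libraries moved the results most. With median-of-ratios scaling 28 members were called higher and 10 lower (4634 and 4552 of all tested genes), and the 28 were called higher in both analyses. With quantile normalization 39 were called higher and 6 lower (4520 and 4534 of all tested genes). Role group counts with median-of-ratios scaling were 3 higher and 1 lower for start codon and scanning factors, for eIF2 delivery and for eIF2B. They were 5 and 1 for eIF3, 5 and 4 for eIF4F and 1 and 1 for the eIF4E-binding proteins. For eIF5A and eIF6 they were 2 and 0, for eEF1 and eEF2 3 and 0, and for kinases and methyltransferases 3 and 1. With quantile normalization the counts were 5 higher and 0 lower for scanning factors, 3 and 1 for eIF2 delivery and 3 and 0 for eIF2B. They were 10 and 1 for eIF3, 7 and 2 for eIF4F and 1 and 1 for the eIF4E-binding proteins. For eIF5A and eIF6 they were 2 and 0, for eEF1 and eEF2 5 and 0, and for kinases and methyltransferases 3 and 1. Median log2 fold changes with median-of-ratios scaling, and then with quantile normalization, were 0.18 and 0.36 for scanning factors, 0.33 and 0.52 for eIF2 delivery, 0.24 and 0.31 for eIF2B, 0.11 and 0.41 for eIF3, 0.08 and 0.35 for eIF4F, -0.42 and -0.29 for the eIF4E-binding proteins, 0.97 and 1.41 for eIF5A and eIF6, and 0.27 and 0.32 for kinases and methyltransferases, and 0.31 and 1.08 for eEF1 and eEF2.

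Rescaling without the Mup genes, and then without mitochondrial and the 20 most abundant genes, gave medians of 0.82 and 0.89 for scanning factors, 0.97 and 1.04 for eIF2 delivery, 0.86 and 0.94 for eIF2B, 0.76 and 0.83 for eIF3, 0.72 and 0.79 for eIF4F, 1.62 and 1.69 for eIF5A and eIF6, and 0.88 and 0.96 for kinases and methyltransferases. Without the Mup genes the median was 0.93 for eEF1 and eEF2, and 1 eIF4E-binding protein, Eif4ebp2, was called lower. In that setting 50 members were called higher and 3 lower. Most of all tested genes were also called higher there, though fewer were called higher and more lower than as deposited. The count of members is to be read against that background. The log2 fold change turned negative with median-of-ratios scaling for Eif2b5 (-0.18), Eif4g2 (-0.18), Eif5 (-0.02), Eif3j1 (-0.38), Eif2a (-0.58), Eif3i (-0.05), Eif2b4 (-0.12), Eif3l (-0.11), Eef2 (-0.08), Eif1 (-0.46), Eif4h (-0.21), Eif3j2 (-0.09), Eif4g1 (-0.60) and Eif4b (-0.56). With quantile normalization it turned negative for Eif2b5 (-0.03), Eif3j1 (-0.33), Eif2a (-0.48), Eif1 (-0.16), Eif3j2 (-0.03), Eif4g1 (-0.24) and Eif4b (-0.27). Eif4b was not called as deposited or with quantile normalization, and was called lower with median-of-ratios scaling. The difference in summed TPM turned to -150.0 for scanning factors and -120.1 for eIF4F with median-of-ratios scaling. The cause was not tested.

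Pseudocounts of 0.1 and 0.5 and the plain variance model left all 58 members on their side of the threshold, and no filter left 57. Leaving out 1 library at a time gave 51 to 54 members higher and 2 lower. Of the 12796 genes tested, 9187 to 9604 were then called higher and 1259 to 1348 lower. The log2 fold changes ranged from -1.04 to 0.12 for Eif4ebp3 and from -0.09 to 0.08 for Eif4ebp2. The difference in the ratio of 4E-BP to eIF4E ranged from -2.59 to 0.0486. Deviations of same-numbered libraries had correlations of 0.08, 0.04 and -0.12, against -0.14 to 0.10 for libraries with different numbers. So few libraries cannot exclude a shared batch, and the labels do not say whether the numbers pair libraries. With the replicate number as a block 52 members were called higher and 2 lower, and Eif2a was not called (0.29, adjusted p = 0.053 in limma). TPM keeps no depth, so counting error is unknown.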
